A study of Mus musculus with 6 samples.

Results

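The T-box (Tbx), LIM homeodomain (Lhx), sine oculis (such as Six4), Meis, Pbx, Irx, Msx, Dlx, Pitx, Pax, Prrx, Gata, Alx, Shox and Barx families encode DNA-binding transcription factors that, beside the Hox genes, lay out the limbs, face, vertebrae and organs of the embryo. Many are switched on in particular body regions and stages, often in several, and fibroblasts taken from an embryo keep transcribing part of the set of the region they came from. Many work in pairs or in larger complexes: Meis and Pbx proteins bind DNA together with Hox proteins, and Lhx proteins act through the adaptor Ldb1. The members were taken by gene symbol alone, as the numbered genes of these 15 families, and came to 64 of the 16982 genes in the count table.

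RNA from 3 WT and 3 Rnf20 knockout (KO) cultures of reprogrammable cells was sequenced at day 3. Reprogrammable cells here are mouse embryonic fibroblasts (MEF) infected with retroviruses for the reprogramming factors OSKM (OCT4, SOX2, KLF4 and C-MYC), of C57BL/6 background by the labels. Rnf20 encodes the E3 ligase that, together with Rnf40, attaches ubiquitin to histone H2B, and the comparison asks how its loss changes transcription early in reprogramming. By the study's methods the MEF carried floxed Rnf20 and a Cre recombinase that is expressed in all tissues and activated by tamoxifen, and 4-OH tamoxifen induced the knockout. The labels call all 6 cultures untreated, and whether the WT cultures had the same alleles or received the drug is not stated. The methods move infected cells onto a feeder layer of growth-arrested MEF, and whether feeder cells entered this RNA is not stated. The labels do not say whether the replicates came from separate embryos, so p-values measure the spread between these libraries, part of which may be technical.

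The libraries held 20545442 to 21746898 counts. Rnf20 stood at 106 to 107 CPM (counts per 1000000 counts of the TMM-normalized library) in WT and at 16.4 to 18.7 CPM in KO, and fell by 2.57 on the log2 scale (SE 0.08, adjusted p = 0.000163), while Rnf40 was at 82.5 to 99.4 CPM in all 6 libraries. The fibroblast genes Col1a1 (7067 to 13077 CPM) and Vim (2655 to 3654 CPM) were high in every library, whereas the muscle genes Myod1 and Myog, the endothelial gene Pecam1 and the erythroid gene Alas2 were each under 1 CPM in every library. Other markers of such cells were present. Endothelial markers summed to 49.1 to 59.2 CPM in WT and 33.9 to 68.1 CPM in KO. The sums were 122 to 129 and 54.9 to 111 CPM for neuron markers, and 60.2 to 67.1 and 24.0 to 85.7 CPM for epithelial markers. Skeletal muscle markers summed to 7.61 to 9.16 and 5.91 to 13.2 CPM, and blood markers to 2.18 to 2.38 and 3.00 to 3.75 CPM. KO replicate 3 stood apart: over all genes its counts differed from those of KO replicates 1 and 2 by a chi-square per gene of 92.4 and 101, against 6.04 to 8.92 within WT and 8.57 between KO replicates 1 and 2. It held the macrophage genes Adgre1 at 31.9 CPM and Lyz2 at 159 CPM, where the other libraries had 1.76 to 4.27 and 25.5 to 58.0 CPM, and the 8 macrophage markers summed to 63.4 to 109 CPM in WT and to 90.5, 61.6 and 244 CPM in KO. Y-linked genes had 4774 to 5092 counts in the WT libraries and 5608 in KO replicate 2, but 0 and 1 in KO replicates 1 and 3, so that the presence of Y-linked RNA and the genotype cannot be fully told apart. By these counts KO replicate 2 was not a repeat library of the same cells as KO replicate 1 or 3.

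Levels can be compared between genes only per length, for which CPM per kilobase of gene (RPKM) was used. The most abundant member was Prrx1, which encodes a paired-type homeodomain factor of limb and facial mesenchyme. Prrx1 stood at 91.6, 80.1 and 76.3 RPKM in WT and at 89.9, 83.4 and 83.03 RPKM in KO, and its libraries overlapped between genotypes. It made up 25.1% of the summed level of all members, between 21.9% and 28.2% in single libraries. Prrx2 followed with a mean over all libraries of 46.7 RPKM, and Tbx15 with 28.6, Meis2 with 18.0, Pbx3 with 14.4 and Irx1 with 12.01 RPKM were also above 10 RPKM. Another 29 members lay between 1 and 10 RPKM and 28 lay under 1 RPKM. These cultures thus held much Prrx, Tbx15, Pbx and Meis RNA and little RNA of the Dlx and Barx families. Summed over all 64 members the level was 374, 346 and 349 RPKM in WT and 325, 328 and 294 RPKM in KO, so that every KO library lay below every WT library. Abundant members weigh most in this sum, and Tbx15 alone went from a mean of 37.6 RPKM in WT to 19.5 RPKM in KO. Member by member there was no such general fall: of the members tested, 23 lay on the higher side in KO and 25 on the lower. In bulk RNA, fewer cells of one kind and less RNA per cell cannot be told apart.

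**Figure D1:**
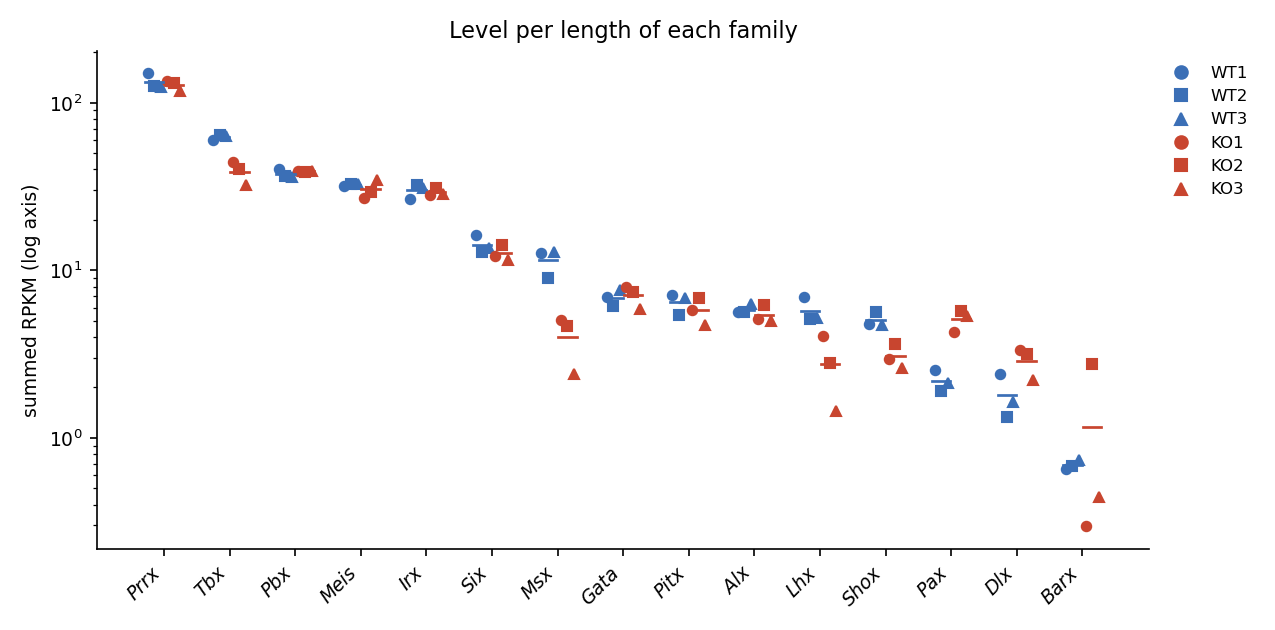
Summed level of each family in each library, in RPKM on a log axis, with families ordered by their mean, WT in blue, KO in red and bars at the mean of 3 libraries. The Tbx, Msx, Lhx and Shox families lay lower in all 3 KO libraries than in any WT library, the Pax family lay higher, and the Prrx family overlapped.

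Of the 64 members, 48 had enough counts to be tested. In edgeR's quasi-likelihood test over 13386 genes, 7 members were higher and 8 lower in KO at an adjusted p under 0.05, that is 31.25% of the tested members, where 33.0% of all genes passed (16.4% higher and 16.6% lower). The members were thus called about as often as genes at large. Their estimated changes were larger in size: the absolute log2 fold change had a median of 0.58 over the 48 members and of 0.32 over all genes tested, and it was above 1 for 31.25% of the members (8 higher, 7 lower) and for 12.9% of all genes. The members above 1 include Barx1, Lhx2, Lhx8, Msx1 and Tbx21, which did not pass and had SE of 0.72 to 0.96. How far low counts and the spread between libraries add to these sizes was not tested. The signed median was -0.051 for the members and -0.0003 for all genes, since 23 members lay on the higher side and 25 on the lower. KO and WT libraries did not overlap for 24 members (9 above, 15 below), that is 50% against 54.8% of all genes. At the stricter thresholds of the study's methods (adjusted p under 0.01, a change of more than 2-fold and FPKM over 1) 1 member passed as higher, Pax1, and none as lower, against 1.50% and 2.08% of all genes. DESeq2 and edgeR's exact test each put 2 members past the stricter thresholds as lower. At an unadjusted p under 0.05 in the quasi-likelihood test, 9 members were higher and 11 lower. The share of all genes at that threshold was not counted.

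The number of members called moved with the libraries used. It was 8, 6 and 5 without WT replicate 1, 2 or 3, 16 and 10 without KO replicate 1 or 2, and 22 without KO replicate 3, and the share of all genes called moved along, from 10.3% without WT replicate 3 to 48.1% without KO replicate 3. Alx4, Pax1, Six5 and Tbx15 passed in each of these 6 fits. With a term for Y-linked counts beside the genotype no member passed (11 higher and 8 lower at an unadjusted p under 0.05), and 0.814% of all genes did.

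**Figure D2:**
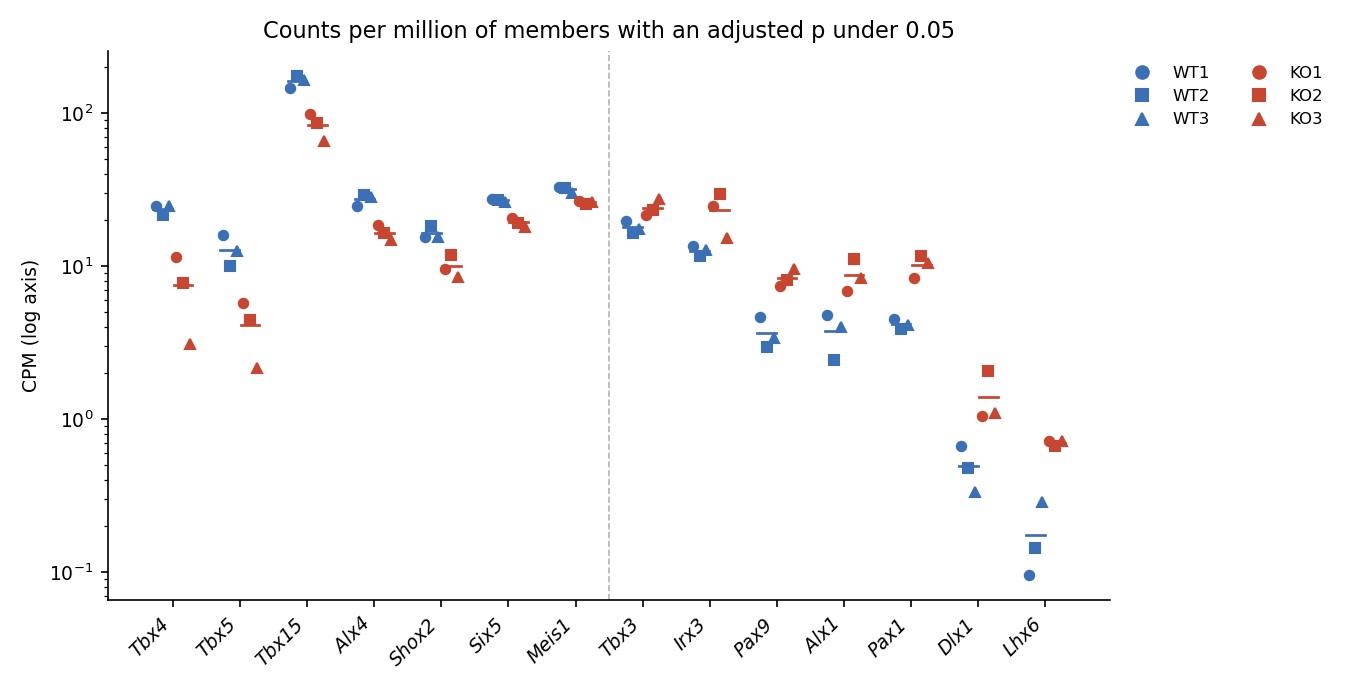
CPM, on a log axis, of 14 of the 15 members with an adjusted p under 0.05 in each library, with WT in blue, KO in red, a marker shape for each replicate number and bars at the means. To the left of the dashed line are 7 members lower in KO and to the right 7 higher, and KO replicate 3 is the lowest library for Tbx4, Tbx5 and Tbx15.

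The members that fell were mostly genes of limb bud mesenchyme. Of 21 limb members, all tested, 7 fell (among them Alx4, Meis1, Shox2, Tbx15, Tbx4 and Tbx5), 2 rose (Irx3 and Tbx3) and 12 did not pass, where 16.6% of all genes fell and 16.4% rose, with a median log2 fold change of -0.29. The 27 other tested members counted 1 that fell and 5 that rose, with a median of 0.31. Counted after the data were seen, 3, 3 and 2 limb members fell without WT replicate 1, 2 or 3 and 8, 5 and 10 without KO replicate 1, 2 or 3, and none with the term for Y-linked counts; none rose without a WT replicate or KO replicate 2, 1 without KO replicate 1 and 3 without KO replicate 3. Of all genes 14.3%, 11.9% and 10.3% were called, in either direction, without WT replicate 1, 2 or 3. Without KO replicate 1, 2 or 3 these shares were 27.7%, 24.0% and 48.1%. Libraries of the 2 genotypes did not overlap for 16 limb members, 12 of them lower and 4 higher in KO, where this held for 28.2% and 26.6% of all genes. The limb list was drawn up with earlier results of these data known, and the difference between the lists was not tested. Relative to the WT mean, the median limb member stood at -0.26, -0.21 and -0.68 on the log2 scale in KO replicates 1 to 3 and between -0.08 and 0.08 in the WT libraries. Pdgfra and Thy1, which mark fibroblasts, fell as well, from 181 to 222 CPM in WT to 49.9 to 108 CPM in KO for Pdgfra and from 157 to 192 to 78.4 to 88.8 CPM for Thy1, while Col1a1 and Pdgfrb overlapped between genotypes; summed over 10 fibroblast markers the level was 27680 to 30035 CPM in WT and 18005 to 33780 CPM in KO. Of these 10 markers 2 fell and 0 rose at an adjusted p under 0.05, where 16.6% and 16.4% of all genes did. Their log2 fold change was positive for 4 and negative for 6. Every KO library lay above WT for 1 marker and below WT for 3. The part of these markers in the limb result was not tested.

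Tbx4 and Tbx5 are the T-box genes of the hindlimb and the forelimb, respectively. Tbx4 was at 24.6, 21.5 and 24.8 CPM in WT and at 11.5, 7.79 and 3.10 CPM in KO, 3.17-fold lower (log2 fold change -1.66, SE 0.41, adjusted p = 0.0236). Tbx5 was at 15.8, 10.02 and 12.4 CPM in WT and at 5.68, 4.42 and 2.14 CPM in KO, 3.12-fold lower (log2 fold change -1.64, SE 0.36, adjusted p = 0.0164). Both genes were below the lowest WT library in every KO culture and lowest in KO replicate 3. Without KO replicate 3 the changes were -1.29 and -1.34 with adjusted p = 8.58e-05 and 0.000533. Tbx4 lost the call without any 1 of the WT replicates (adjusted p = 0.0717 to 0.0842) or without KO replicate 2 (0.0566), and Tbx5 without WT replicate 1 (0.0637) or 3 (0.0645). Pitx1, the homeobox gene that acts above Tbx4 in the hindlimb, was at 11.1, 10.3 and 13.6 CPM in WT and at 8.21, 10.02 and 5.19 CPM in KO (log2 fold change -0.58, SE 0.25, adjusted p = 0.119).

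Tbx15, a T-box gene of limb and skin mesenchyme that shapes the shoulder blade, was the most abundant member to fall. It stood at 145, 175 and 164 CPM in WT and at 98.8, 86.5 and 65.7 CPM in KO (log2 fold change -0.95, SE 0.16, adjusted p = 0.00788). Tbx15 alone made up 56.3% of the level of the Tbx family, which went from 62.8 ± 2.29 RPKM in WT to 38.7 ± 6.09 RPKM in KO (mean ± SD, n = 3). The relatives Tbx2 (log2 fold change -0.06, SE 0.24, adjusted p = 0.856) and Tbx18 (0.07, SE 0.09, adjusted p = 0.567) overlapped between genotypes. Tbx3, which patterns the posterior limb and the mammary gland, rose from 19.6, 16.4 and 17.6 CPM to 21.5, 23.1 and 27.3 CPM (log2 fold change 0.43, SE 0.12, adjusted p = 0.0399). That call was lost without any 1 WT replicate (adjusted p = 0.0698 to 0.136), without KO replicate 2 (0.0710) and with library size as the only scaling (0.0617).

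Alx4, a paired-type homeobox gene of the anterior limb bud and the face, fell, whereas its relative Alx1, needed for the midface and the eye region, rose. Alx4 was at 24.8, 29.2 and 28.4 CPM in WT and at 18.4, 16.3 and 14.7 CPM in KO (log2 fold change -0.74, SE 0.12, adjusted p = 0.00752). Alx1 was at 4.80, 2.42 and 3.99 CPM in WT and at 6.87, 11.2 and 8.29 CPM in KO (log2 fold change 1.23, SE 0.30, adjusted p = 0.0237). Alx1 lost its call without WT replicate 2 (adjusted p = 0.0661) or 3 (0.0820) or KO replicate 2 (0.0625).

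Shox2, a homeobox gene needed for the upper limb segment and the heart's pacemaker region, was at 15.5, 18.4 and 15.4 CPM in WT and at 9.59, 11.8 and 8.43 CPM in KO (log2 fold change -0.72, SE 0.16, adjusted p = 0.0162). All 3 KO libraries lay below WT, and the call was lost without any 1 WT replicate (adjusted p = 0.0512 to 0.0700). Its exons share 153 bases with the Rsrc1 gene on the opposite strand, which itself stood lower in KO (log2 fold change -0.32, SE 0.08, adjusted p = 0.0222), and whether the counting used the strand is not stated. Meis1, a partner of Pbx proteins in the proximal limb, fell by 0.29 on the log2 scale (SE 0.08, adjusted p = 0.0314), from 33.0, 32.1 and 30.2 CPM to 26.4, 25.5 and 26.2 CPM. Of the 6 fits with a library left out, the Meis1 call held only without KO replicate 3 (0.0130), with adjusted p = 0.0672 to 0.113 when any other library was left out, and it was also lost with edgeR's exact test (0.0691). Meis2 was at 69.2 to 72.6 CPM in WT and 60.7 to 66.8 CPM in KO (log2 fold change -0.16, SE 0.07, adjusted p = 0.119), and passed with library size as the only scaling (0.0446).

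Msx1, Lhx2 and Lhx9 lay lower in KO by 1.06 or more on the log2 scale without passing edgeR's quasi-likelihood test, and in all 3 the lowest library was KO replicate 3. Msx1, a homeobox repressor of the limb tip and the jaws, was at 20.9, 14.95 and 21.9 CPM in WT and at 6.83, 6.32 and 0.429 CPM in KO (log2 fold change -2.09, SE 0.72, adjusted p = 0.0643). Lhx2, a LIM homeobox gene of the growing limb tip, the forebrain and the eye, had 164, 130 and 122 counts in WT and 75, 23 and 0 counts in KO (log2 fold change -2.08, SE 0.96, adjusted p = 0.140). Lhx9, its close relative, was at 19.7, 13.8 and 14.1 CPM in WT and at 12.2, 6.65 and 4.001 CPM in KO (log2 fold change -1.06, SE 0.39, adjusted p = 0.0762). For all 3 genes every KO library was below every WT library. Without KO replicate 3 all 3 passed, Msx1 with a log2 fold change of -1.55 (adjusted p = 6.08e-05), Lhx2 with -1.49 (0.00812) and Lhx9 with -0.75 (0.0246), and without KO replicate 1 Lhx2 (0.0411) and Lhx9 (0.0176) passed as well. With all libraries, Lhx9 passed with DESeq2 (adjusted p = 0.0236) and with edgeR's exact test (0.0332), Msx1 with the exact test (0.0354) but not with DESeq2 (0.0769), and Lhx2 with neither (0.296 and 0.188).

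Irx3, an Iroquois homeobox gene of the proximal and anterior limb, rose from 13.5, 11.5 and 12.7 CPM to 24.5, 29.6 and 15.2 CPM (log2 fold change 0.88, SE 0.24, adjusted p = 0.0317). KO replicate 3 was nearest to WT here: without it the change was 1.11 (adjusted p = 3.30e-05), and without any other library the call was lost (adjusted p = 0.0686 to 0.112). Prrx1 (log2 fold change 0.05, SE 0.09, adjusted p = 0.714) and Prrx2 (-0.23, SE 0.15, adjusted p = 0.250) did not pass, and the sign for Prrx1 turned with library size as the only scaling and without WT replicate 3.

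**Figure D3:**
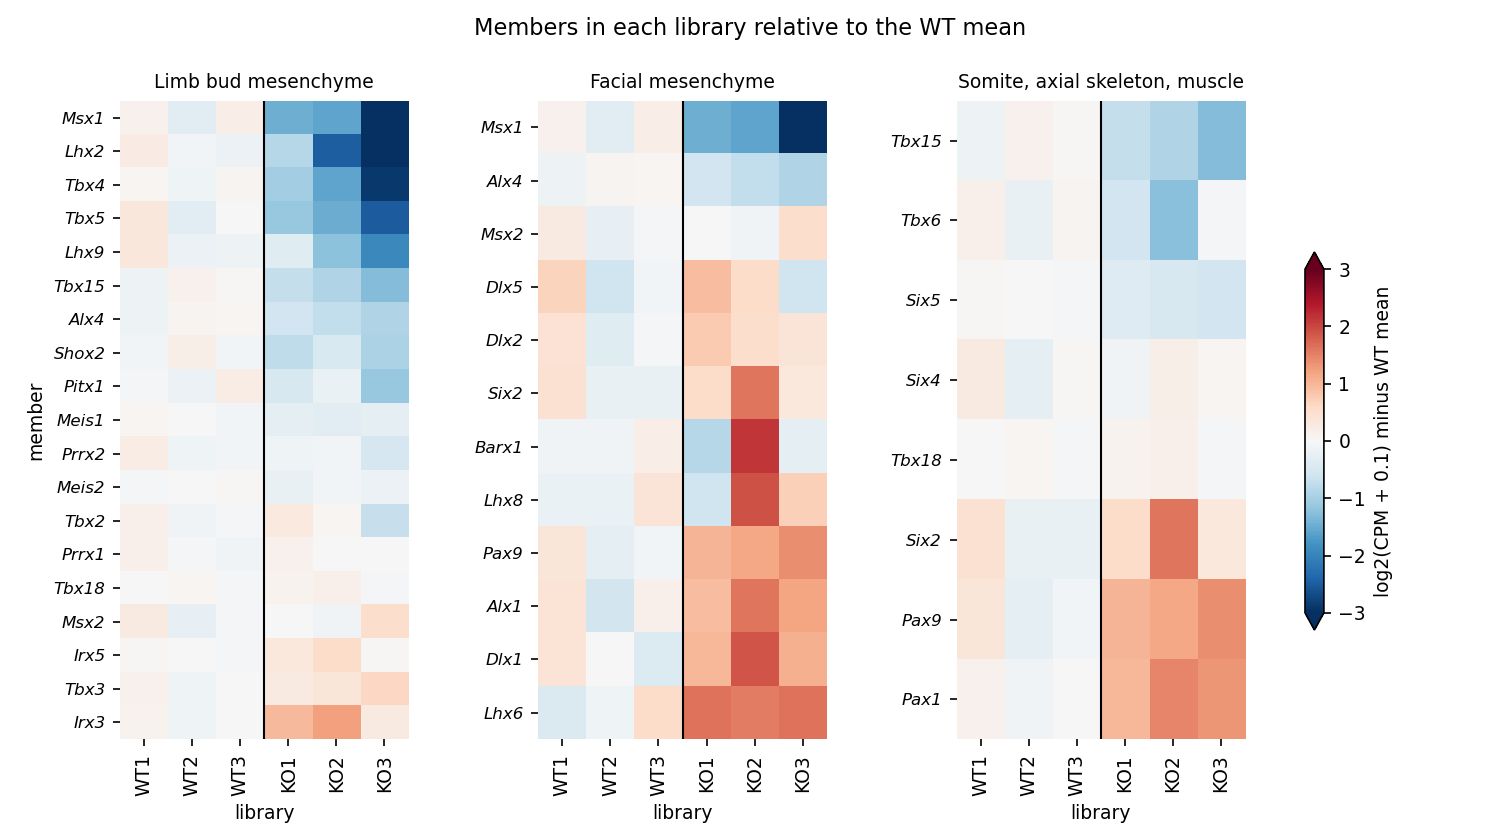
log2(CPM + 0.1) of tested members minus the WT mean, by library (columns) and member (rows, ordered by fold change), for the limb, facial and axial lists, with blue for lower, red for higher and the scale ended at -3 and 3. Some members stand in 2 lists, the darkest blue is KO replicate 3 in the limb list, and several facial members are reddest in KO replicate 2.

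Pax1 and Pax9, the paired-box genes of the sclerotome from which vertebrae form, rose together. Pax1 was at 4.52, 3.84 and 4.13 CPM in WT and at 8.35, 11.6 and 10.5 CPM in KO, 2.44-fold higher (log2 fold change 1.29, SE 0.17, adjusted p = 0.00501). Pax9, which also acts in the pharyngeal pouches and the teeth, was at 4.61, 2.94 and 3.37 CPM in WT and at 7.40, 8.12 and 9.53 CPM in KO, 2.29-fold higher (log2 fold change 1.20, SE 0.22, adjusted p = 0.0101). In both genes every KO library lay above the highest WT library. Pax9 lost the call without WT replicate 3 (adjusted p = 0.0545), while Pax1 stayed between 0.000345 and 0.0365 whichever library was left out. Exons of Pax9 share 189 bases with Slc25a21 on the opposite strand, which had at most 0.239 CPM in any library. Six5, a homeobox gene expressed in muscle and the eye, fell by 0.48 on the log2 scale (SE 0.09, adjusted p = 0.00993), from 27.4, 26.9 and 26.3 CPM to 20.6, 19.1 and 18.0 CPM. Of 10 tested axial and muscle precursor members, 2 rose (Pax1 and Pax9), 2 fell (Six5 and Tbx15) and 6 did not pass. Of all genes 16.4% rose and 16.6% fell, so that the axial members were called about as often as genes at large. Six4 (log2 fold change 0.03), which acts in muscle precursors, had adjusted p = 0.911.

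Promoters are shown for Tbx4 and Shox2, which fell, and Pax1 and Pax9, which rose, so that their base composition can be seen beside the values above. Each line holds the 250 bases before the transcription start in RefSeq (GRCm38.p6), read 5′ to 3′, with CpG dinucleotides in capitals. None of the 4 windows holds a GENCODE exon, and those of Tbx4, Pax1 and Pax9 lie within the longer gene span that GENCODE draws.
Tbx4 (chr11:85896515-85896764, plus strand): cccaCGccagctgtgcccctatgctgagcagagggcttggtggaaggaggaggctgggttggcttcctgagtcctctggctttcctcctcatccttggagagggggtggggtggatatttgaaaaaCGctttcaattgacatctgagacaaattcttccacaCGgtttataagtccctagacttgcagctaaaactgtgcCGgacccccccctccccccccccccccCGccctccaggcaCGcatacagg
Shox2 (chr3:66981772-66982021, minus strand): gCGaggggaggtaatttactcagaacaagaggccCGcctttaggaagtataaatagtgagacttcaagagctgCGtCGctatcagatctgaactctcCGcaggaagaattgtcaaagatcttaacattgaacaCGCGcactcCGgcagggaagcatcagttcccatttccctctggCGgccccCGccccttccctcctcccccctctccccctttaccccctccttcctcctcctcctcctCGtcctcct
Pax1 (chr2:147364744-147364993, plus strand): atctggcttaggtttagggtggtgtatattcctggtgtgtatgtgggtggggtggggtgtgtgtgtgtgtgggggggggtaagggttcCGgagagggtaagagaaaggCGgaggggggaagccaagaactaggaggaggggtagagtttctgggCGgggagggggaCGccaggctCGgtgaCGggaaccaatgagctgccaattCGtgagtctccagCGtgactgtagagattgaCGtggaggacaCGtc
Pax9 (chr12:56695221-56695470, plus strand): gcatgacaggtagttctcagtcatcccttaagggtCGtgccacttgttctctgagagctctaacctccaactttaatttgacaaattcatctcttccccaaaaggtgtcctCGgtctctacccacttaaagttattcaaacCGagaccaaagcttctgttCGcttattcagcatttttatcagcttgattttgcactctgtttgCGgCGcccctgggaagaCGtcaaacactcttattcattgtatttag
These windows hold 6, 11, 10 and 7 CpG in the order shown. In windows of 300 bases, which include 50 bases after the start, 41 of the 64 members matched by symbol, and their median GC content was 62% against 52.7% over 27025 genes. The median member window held 19 CpG and the median gene 7, with an observed over expected ratio of 0.71 against 0.39. The 5 matched members that rose had a median of 14 CpG, the 4 that fell 13 and the 22 that were tested and did not pass 22. Searched on both strands, GGGCGG (the GC box) was in 65.9% of member windows and 35.9% of all, CCAAT in 43.9% and 37.9%, and TATAAA in 9.76% and 14.2%. TATAAA was in the windows of Tbx4 (opposite strand, from base -85) and Shox2 (from -203), and CCAAT in that of Pax1 (from -63 and -52). At the median, windows of members thus held more CpG than those of genes at large, both for members that rose and for members that fell. Members without a match included Alx1, Alx4, Barx2, Dlx3, Dlx4, Dlx5, Dlx6, Gata4, Gata6, Irx1, Irx5, Lhx5, Pax3, Pbx3, Pitx1, Tbx15, Tbx2, Tbx3 and Tbx5.

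Tested genes of facial mesenchyme, which comes from the neural crest, more often had a positive (11) than a negative (4) log2 fold change. The table had 20 facial members and a test was possible for 15, of which 4 rose (Alx1, Dlx1, Lhx6 and Pax9), 2 fell (Alx4 among them) and 9 did not pass, where 16.4% of all genes rose and 16.6% fell, with a median log2 fold change of 0.61. The genotypes did not overlap for 4 facial members higher in KO and 3 lower, where this held for 26.6% and 28.2% of all genes. Relative to the WT mean, the median facial member stood at 0.55, 0.75 and 0.39 on the log2 scale in KO replicates 1 to 3. It stood at 0.36, -0.25 and -0.03 in WT replicates 1 to 3, so that WT replicate 1 lay close to KO replicate 3. The list shares members with the limb list, such as Alx4, Msx1 and Msx2, and with the axial list, such as Pax9 and Six2. Dlx1, a homeobox gene of the jaw arches and of forebrain interneurons, had 14, 10 and 7 counts in WT and 22, 43 and 23 counts in KO (log2 fold change 1.50, SE 0.43, adjusted p = 0.0378). Lhx6, a LIM homeobox gene of the same places, had 2, 3 and 6 counts in WT and 15, 14 and 15 counts in KO (log2 fold change 1.97, SE 0.46, adjusted p = 0.0208). Lhx6 passed the filter on low counts only through the KO libraries, where it is high. Its call, counted among the 4 facial members that rose, is therefore weak support for a rise. With the filter of CPM over 1 in at least 3 libraries Lhx6 was not tested. Both genes were near the limit of detection, which 3 counts or about 0.142 CPM sets here, and that floor covers counting error only. Dlx1 lost its call without any 1 WT replicate (adjusted p = 0.0698 to 0.132), without KO replicate 2 (0.102) or with no filter on low counts (0.0525), and Lhx6 without WT replicate 1 (0.0748) or 2 (0.0850).

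Dlx2, which lies next to Dlx1, was the most abundant Dlx gene and stood at 3.42, 1.90 and 2.37 CPM in WT and at 4.34, 3.66 and 3.29 CPM in KO (log2 fold change 0.55, SE 0.28, adjusted p = 0.166). KO replicate 2 stood highest for several facial genes. Barx1, a homeobox gene of the molar field and the stomach wall, had 15, 15 and 19 counts in WT and 8, 79 and 13 in KO (log2 fold change 1.03, SE 0.84, adjusted p = 0.372), and without KO replicate 2 its change was -0.62. Lhx8 had 1.57 CPM in KO replicate 2 and 0.191 to 0.619 CPM elsewhere, and Six2 5.18 CPM against 1.38 to 2.43 CPM. These 3 were the tested members that KO replicate 2 held at more than 2-fold the next library. The glial and neural crest gene Sox10 was also highest in KO replicate 2, at 6.13 CPM, against 2.04 to 3.10 CPM in the other libraries; of 8 glial and melanocyte markers, summed at 16.3 to 19.6 CPM in WT and 16.6 to 21.9 CPM in KO, 5 were under 1 CPM in every library, with Dct and Tyr at or near 0. Of the 4 tested glial and melanocyte markers, 3 had a positive and 1 a negative log2 fold change. At an adjusted p under 0.05 in the quasi-likelihood test, 0 of them rose and 1 fell, where 16.4% and 16.6% of all genes did. The part of these markers in the facial result was not tested.

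KO replicate 3 was the extreme library in the other direction. It was below the other 5 libraries for 18 of the 48 tested members and above them for 7, in all 52.1%, where it was extreme for 67.1% of all genes. Gata4, Lhx2, Msx1, Pax5, Tbx21, Tbx4 and Tbx5 were more than 2-fold under the next lowest library there. No other library had a tested member more than 2-fold below the rest, and only KO replicate 2 had any more than 2-fold above.

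**Figure D4:**
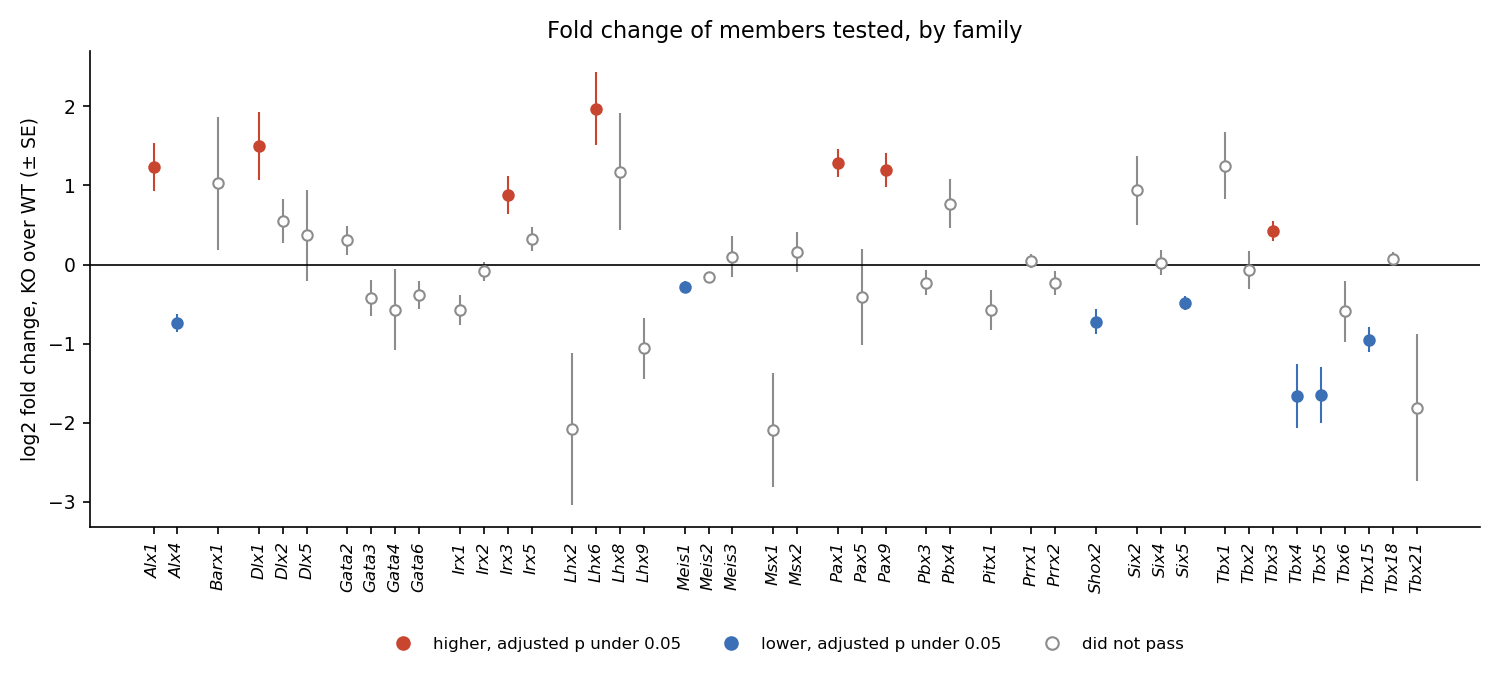
log2 fold change of KO over WT with its standard error for 44 of the 48 members tested, grouped by family, with filled red and blue points for members higher and lower at an adjusted p under 0.05 and open points for the rest. Within the Alx, Lhx and Tbx families points lie on both sides of 0, and the widest bars belong to Lhx2, Tbx21, Barx1, Lhx8 and Msx1.

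Members of one family often lay on opposite sides. In the Tbx family 3 of 9 tested members fell and 1 rose, where 16.6% of all genes fell and 16.4% rose. Tbx1, a gene of the pharyngeal arches and the heart outflow, was at 1.24, 2.04 and 2.28 CPM in WT and at 2.20, 5.08 and 5.95 CPM in KO (log2 fold change 1.25, SE 0.43, adjusted p = 0.0629), and Tbx21, a lymphocyte gene, had 32, 72 and 55 counts in WT and 33, 12 and 0 in KO (log2 fold change -1.81, SE 0.93, adjusted p = 0.175). In the Pax family 2 of 3 tested members rose, too few genes to set against these shares, and its level went from 2.19 ± 0.325 to 5.13 ± 0.738 RPKM (mean ± SD, n = 3). Of the 4 tested Gata genes, zinc finger factors of blood, heart and endoderm, none passed edgeR's quasi-likelihood test, with adjusted p = 0.129 to 0.419, 0 at an unadjusted p under 0.05 and 0 by DESeq2 or the exact test. Gata2, a gene of blood progenitors and the most abundant of them, was at 15.5, 12.2 and 16.2 CPM in WT and at 20.95, 19.4 and 13.9 CPM in KO (log2 fold change 0.31, SE 0.19, adjusted p = 0.240), and passed only without KO replicate 3 (log2 fold change 0.46, adjusted p = 0.0111). The 3 Pbx and 2 Pitx genes tested did not pass either, with log2 fold changes from -0.58 to 0.77, and 1 of them, Pbx4, had an unadjusted p under 0.05; DESeq2 and the exact test called none.

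Of the neural tube, eye and ear members, 12 were in the table and 4 were tested, and none passed edgeR's quasi-likelihood test, with 1, Irx1, at an unadjusted p under 0.05. Irx1, which patterns the neural tube and the lung, was at 28.8, 40.4 and 35.1 CPM in WT and at 18.7, 22.2 and 29.0 CPM in KO (log2 fold change -0.58, SE 0.19, adjusted p = 0.0586). It passed with DESeq2 (adjusted p = 0.0265), with the exact test (0.0309), with library size as the only scaling (0.0419) and without KO replicate 3 (log2 fold change -0.76, adjusted p = 0.00129). Irx2 overlapped between genotypes (log2 fold change -0.08, SE 0.12, adjusted p = 0.597). The other list with members tested, that of blood, heart and endoderm, had 1 of 7 that passed, Tbx5, which it shares with the limb list. Of all genes tested 33.0% passed, and both lists hold few tested members.

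The 16 members left out of the test had at most 29 counts in any library. Pax8, a gene of the thyroid and kidney, had 0 counts in all 3 WT libraries and 6, 5 and 8 counts in KO, at least 2.12-fold higher than the floor of 3 counts per library. Lhx5, a gene of the forebrain, had 0 counts in WT and 1, 5 and 5 in KO. Pax3, a gene of the dorsal neural tube and muscle precursors, had 13, 7 and 9 counts in WT and 8, 29 and 6 in KO. Gata5 and Barx2 had at most 4 and 7 counts and were lower in all KO libraries, Dlx6 had at most 21 and was higher in all of them, and Dlx4 had at most 9. Pax6, Six3, Six6, Irx4, Lhx1, Lhx4, Gata1, Tbx20 and Dlx3, genes of the eye, brain, heart, blood and skin, had at most 16 counts in any library.

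Several members lie near each other in the genome. In GENCODE M21 (GRCm38) 14 pairs, made of 21 members, lie within 1000 kb of each other, and in 6 pairs both genes were tested. The pairs were taken by distance alone, and some, such as Lhx5 and Tbx3, join different families. Tbx2 (chr11:85832551-85841948) and Tbx4 (chr11:85886422-85916097) are 44.5 kb apart on the plus strand. The log2 RPKM ratio of Tbx2 to Tbx4 was -0.84, -0.90 and -1.04 in WT and 0.40, 0.73 and 1.32 in KO, so that Tbx4 was the higher of the pair in every WT library and Tbx2 in every KO library. Tbx3 (chr5:119670669-119684724) and Tbx5 (chr5:119832668-119885219) are 148 kb apart, also on the plus strand. Their log2 RPKM ratio, Tbx3 over Tbx5, was -0.06, 0.34 and 0.13 in WT and 1.55, 2.02 and 3.30 in KO, the widest shift of the 6 pairs.

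The other neighbours moved less. The log2 RPKM ratio of Irx3 to Irx5, 556 kb apart on chromosome 8, was 0.67 to 0.89 in WT and 1.05 to 1.49 in KO, and that of Irx1 to Irx2, 665 kb apart on chromosome 13, was 0.66 to 0.90 in WT and -0.10 to 0.55 in KO. In these 4 pairs the libraries of the genotypes did not overlap. Dlx1 and Dlx2, 9.43 kb apart on chromosome 2, had ratios of -3.57 to -2.73 in WT and -2.78 to -1.57 in KO. The ratio of neighbours thus shifted most in both T-box pairs, and no test was run on the ratios.

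**Figure D5:**
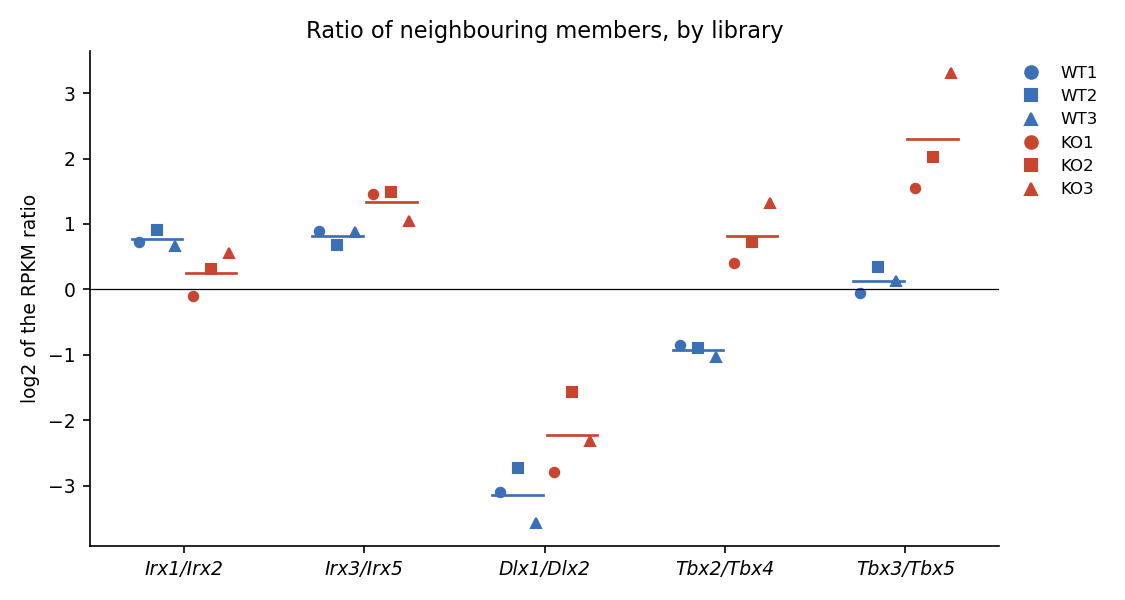
log2 of the RPKM ratio of the first to the second gene of 5 neighbouring pairs in each library, with WT in blue, KO in red and bars at the mean of 3 libraries. The T-box pairs at the right show the widest gap between genotypes, with KO replicate 3 at the top of both, and the genotypes overlap for Dlx1 and Dlx2.

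The families act through shared cofactors. Of 24 tested cofactors 3 rose and 7 fell, where 16.4% and 16.6% of all genes did, with a median log2 fold change of -0.07. The 3 that rose were Dach2, a partner of Eya proteins (log2 fold change 1.11, SE 0.32, adjusted p = 0.0389), Zfpm2, the partner of Gata4 (0.72, SE 0.12, adjusted p = 0.00878), and Pbxip1, which binds Pbx proteins (0.66, SE 0.14, adjusted p = 0.0164). The 3 that fell most were Ldb2, a LIM-domain-binding adaptor (-1.79, SE 0.39, adjusted p = 0.0172), Dach1 (-0.70, SE 0.22, adjusted p = 0.0492) and the corepressor Tle2 (-0.68, SE 0.20, adjusted p = 0.0405). Ldb2 was at 10.03, 13.2 and 13.9 CPM in WT and at 3.25, 5.70 and 1.76 CPM in KO. The counts of cofactors that fell were 1 to 8, and those that rose 1 to 5, over the 6 fits with 1 library left out, with 1 or 2 falling and 1 rising without any 1 WT replicate and both counts highest without KO replicate 3. The share of all genes called moved along, from 10.3% without WT replicate 3 to 48.1% without KO replicate 3.

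Other patterning factors of mesenchyme, outside the 15 families, fell more often than they rose: of 43 tested, 12 fell and 2 rose, with a median log2 fold change of -0.32. Of all genes tested 16.6% fell and 16.4% rose. Tfap2b, a factor of neural crest and limb, was at 28.2, 21.9 and 23.4 CPM in WT and at 3.82, 3.23 and 0.0476 CPM in KO (log2 fold change -3.37, SE 0.77, adjusted p = 0.0193). Osr2, a zinc finger gene of palate and joints, was at 25.2, 20.7 and 25.9 CPM in WT and at 3.91, 3.13 and 0.524 CPM in KO (log2 fold change -3.24, SE 0.54, adjusted p = 0.00817). Lmx1b, the dorsal selector gene of the limb, was at 12.8, 7.40 and 9.82 CPM in WT and at 5.73, 3.04 and 1.67 CPM in KO (log2 fold change -1.52, SE 0.44, adjusted p = 0.0384). The 2 that rose were the forkhead genes Foxc1, of somites and skull, from 33.4, 18.3 and 24.2 to 59.5, 73.5 and 67.2 CPM (log2 fold change 1.40, SE 0.22, adjusted p = 0.00670), and Foxd1, of kidney stroma and retina, from 24.1, 13.5 and 15.8 to 33.9, 37.5 and 39.1 CPM (1.05, SE 0.21, adjusted p = 0.0137). Without any 1 WT replicate 5 of these factors fell, and without KO replicate 3 17 did. The share of all genes called in either direction was 10.3% to 14.3% without a WT replicate and 48.1% without KO replicate 3. Both lists were drawn up with earlier results of these data known.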

How the data were processed

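RNA-seq libraries of WT (3) and Rnf20 knockout (3) at day 3 were grouped by the sample titles. The authors prepared strand-specific poly(A) libraries, aligned reads to GRCm38/mm10 with HISAT2 2.1.0 (per the labels) and deposited raw counts per gene with gene lengths; the counting program is not given in the sources used here. The authors deposited FPKM values from Cufflinks 2.1.1 for 12633 genes, which held 42 members; here they served only the FPKM threshold and an alternative level. The authors also deposited log2 fold changes and FDR p-values of their own comparison, which were not used.

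Members and gene lists were chosen with earlier results of these data known. With R 4.3.3 and edgeR 4.0.16, counts were normalized by TMM, filtered with filterByExpr (13386 genes left) and compared by the quasi-likelihood test, adjusted by Benjamini-Hochberg over all genes tested. SE is the size of the log2 fold change over the root of the F statistic. The scripts were tested on simulated data. Replicate numbers did not pair the libraries: the deviations of same-numbered WT and KO libraries correlated at -0.066, 0.037 and 0.011. Alternatives were other scalings, filters and tests (DESeq2 1.42.0, edgeR's exact test), the replicate number as a block, a term for 4 Y-linked genes, and each library left out. Depth was 20545442 to 21746898 counts per library, where 3 counts, the floor for lower bounds, are about 0.142 to 0.143 CPM. Duplicate reads are not marked, so the floor covers counting error only. Named were Rnf20, Rnf40, members with an adjusted p under 0.05 or past the stricter thresholds, the most abundant member of each family, members with an absolute log2 fold change over 1 and no overlap, and the 3 cofactors and other factors with the largest called change each way; the other members that are named, and markers, were chosen after their values were seen. Some members that meet these rules, and 1 marker, enter the fits and counts but are not reported here by name. Positions came from GENCODE M21 and promoters from RefSeq. Exons of 21 members share bases with another gene in GENCODE, among them the called Alx1, Dlx1, Irx3, Lhx6, Meis1, Pax1, Pax9, Shox2 and Tbx3.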

Additional observations from a re-analysis of the deposited data

How the results depend on the processing

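For single members under other scalings, filters and tests, 142 values kept direction and call, 3 lost the call, 7 gained it and 1 reversed, and with a library left out these numbers were 112, 35, 7 and 2. The replicate block kept 17, lost 7 and gained 2, and the term for Y-linked counts kept 11 and lost 15. Direction reversed for Prrx1 with library size only (-0.013) and without WT replicate 3 (-0.011), and for Barx1 without KO replicate 2 (-0.62); over the libraries left out Prrx1 ran from -0.011 to 0.12 and Barx1 from -0.62 to 1.49. The median of the members was -0.112 with library size only, where that of all genes was -0.060, and 0.026 with no filter on low counts, and -0.125 to 0.032 with a library left out. Without any 1 library, 2 to 10 members rose and 3 to 12 fell, 0 to 3 and 2 to 10 of the limb members, 1 to 5 and 1 to 8 cofactors, and 1 to 4 and 5 to 17 other patterning factors. Over these fits the share of all genes called ran from 10.3% to 48.1%. Past the stricter thresholds 0 to 4 members rose and 0 to 4 fell. Those thresholds passed 2 higher members with RLE size factors and with CPM over 1 in at least 3 libraries, 3 higher and 2 lower with DESeq2 and with the exact test, and 1 lower with library size only. DESeq2 and the exact test called 4 other patterning factors as higher, and library size only 1 limb member as higher. With the replicate number as a block, which the pairing check did not support as a design, 3 members rose (0 of the limb list, 0 past the stricter thresholds) and 8 fell. With the term for Y-linked counts, 0 members, 0 limb members, 0 cofactors and 0 other patterning factors passed in either direction, also at the stricter thresholds; the cause of these shifts was not tested. Prrx1 held 29.6% of the summed level by the deposited FPKM, and the most abundant member was the same in 13 of the 15 families. It was Irx2 in place of Irx1 in the Irx family, and the Barx family had no deposited FPKM to compare. Depth limits the 16 members left out of the test and the low counts of Lhx6 and Dlx1. Groups of 3 libraries were not tested for outlying values of single members.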
